A study of Mus musculus with 8 samples.

Results

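The 10 genes described here make, move, sense or break down prostaglandins and leukotrienes, and they were taken by their symbols from the 25124 genes of the deposited table. The list was drawn up with earlier results of these data known, so counts over it describe the listed genes and are no independent evidence. They are the cyclooxygenases Ptgs1 and Ptgs2, the prostanoid synthases Ptges and Hpgds, the degrading enzyme Hpgd, the leukotriene synthesis genes Alox5, Alox5ap and Ltc4s, the receptor Ptger4 and the transporter Slco2b1. RNA was sequenced from osteoclast precursor (OCP) cells, adherent macrophages grown out of mouse bone marrow, which fuse into bone-resorbing osteoclasts when they receive RANKL. No engineered allele is named for these cells, and all were kept in M-CSF (30 ng/mL), the growth factor on which macrophages depend. The 4 groups of 2 libraries each were no PRDX1 + no RANKL, PRDX1 + no RANKL, no PRDX1 + RANKL and PRDX1 + RANKL, where RANKL was given at 100 ng/mL and PRDX1, a recombinant peroxiredoxin added from outside the cell, at 200 nM for 48 h. The labels name C57BL/6 mice of 6 to 8 weeks, whereas the study's methods name ICR mice for this preparation, so the strain is not settled. No source says that the 2 libraries of a group came from separate animals, so the p-values measure only the spread between these libraries, which may be technical.

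Eicosanoids are short-lived lipid signals cut from arachidonic acid. Cyclooxygenases turn it into prostaglandin H2, from which separate synthases make prostaglandin E2, prostaglandin D2, prostacyclin and thromboxane, while 5-lipoxygenase and its partner protein start the leukotriene branch. Transporters bring prostaglandins back into cells, where 15-hydroxyprostaglandin dehydrogenase inactivates them. Macrophages are a major source of both classes, and prostaglandin E2 is known in bone for acting on stromal cells and precursors to alter osteoclast formation.

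The 250 bases before the transcript start are shown for the members on which the results turn, namely the transporter and the dehydrogenase that were lowest in RANKL, the prostaglandin D synthase, and the synthase and cyclooxygenase of the prostaglandin E2 branch. The sequences are from RefSeq on GRCm38.p6 (mm10), written in the direction of transcription, with the window at chr7:99711341-99711590 on the minus strand for Slco2b1, chr8:56294302-56294551 on the plus strand for Hpgd, chr6:65144731-65144980 on the minus strand for Hpgds, chr2:30903298-30903547 on the minus strand for Ptges and chr1:150099781-150100030 on the plus strand for Ptgs2. Capitals mark the only match to a searched motif in the windows at the starts used in the table.
Slco2b1: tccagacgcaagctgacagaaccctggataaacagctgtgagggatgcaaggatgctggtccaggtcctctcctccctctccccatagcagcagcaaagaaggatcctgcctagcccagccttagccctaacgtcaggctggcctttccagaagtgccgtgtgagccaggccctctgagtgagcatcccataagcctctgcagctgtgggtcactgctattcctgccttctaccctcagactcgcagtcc
Hpgd: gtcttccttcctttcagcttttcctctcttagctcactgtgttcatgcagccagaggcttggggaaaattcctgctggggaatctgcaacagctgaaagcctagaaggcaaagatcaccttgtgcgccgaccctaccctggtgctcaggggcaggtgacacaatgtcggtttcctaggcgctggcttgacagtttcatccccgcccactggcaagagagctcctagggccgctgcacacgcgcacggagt
Hpgds: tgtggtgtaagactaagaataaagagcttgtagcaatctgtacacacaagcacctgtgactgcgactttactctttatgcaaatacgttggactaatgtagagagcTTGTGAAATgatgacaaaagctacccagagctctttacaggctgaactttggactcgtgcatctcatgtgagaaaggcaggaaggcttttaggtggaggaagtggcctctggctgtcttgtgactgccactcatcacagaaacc
Ptges: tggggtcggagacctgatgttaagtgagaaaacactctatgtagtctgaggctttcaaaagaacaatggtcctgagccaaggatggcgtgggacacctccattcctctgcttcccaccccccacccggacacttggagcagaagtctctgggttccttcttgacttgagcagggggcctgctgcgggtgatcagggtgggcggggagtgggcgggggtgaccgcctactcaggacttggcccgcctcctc
Ptgs2: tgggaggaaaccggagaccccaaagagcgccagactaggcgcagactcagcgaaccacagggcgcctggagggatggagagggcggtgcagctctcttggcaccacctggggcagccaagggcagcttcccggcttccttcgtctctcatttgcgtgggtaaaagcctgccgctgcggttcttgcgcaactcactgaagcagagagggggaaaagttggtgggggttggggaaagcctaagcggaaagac
The motifs searched, on both strands, were the TATA box TATAAA, the cyclic AMP element TGACGTCA, the AP-1 site TGANTCA, the E-box CACGTG, the C/EBP site TTNNGNAAT and the NF-kB consensus. In the windows at the starts used in the table the single match was a C/EBP site 144 to 136 bases before the start of Hpgds, a motif held by 10.2% of 32851 RefSeq windows of this length. The other shares were 12.4% for TATAAA, 1.55% for TGACGTCA, 6.75% for TGANTCA, 6.02% for CACGTG and 3.9% for the NF-kB consensus. Among the 9 members with a window at the start used in the table, the other 8 held none of these exact strings. Near matches were not counted, so this does not show that sites for these factors are absent. RefSeq lists 2 further starts for Slco2b1, and the window of the one at chr7:99706843-99707092 on the minus strand held a C/EBP match 189 to 181 bases before that start. The windows of Ptgs2 and Ptger4 were rich in CpG, with 13 and 19 against a median of 6, and that of Hpgds was poor in it, with 3. Alox5ap had no window in the set of windows used.

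Levels are given as FPKM, reads scaled to the length of the transcript and the total of the library, which can be compared between genes. Library totals ran from 27284669 to 46171768 reads. Differences are log2 fold changes of FPKM + 1. This scale understates the change of low genes, also at several FPKM and most under about 1 FPKM, and the ratio of mean FPKM is given where that matters. A gene was called higher or lower where limma gave a Benjamini-Hochberg adjusted p under 0.05 over the 11700 genes tested and a change of at least 1.5-fold on this scale. 9 of the 10 members had a mean of at least 0.5 FPKM and were tested. Ptgs2 did not, and its fit comes from a run without that filter. All values come from mixed cultures, in which fewer cells of a type and less RNA per cell cannot be told apart.

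PRDX1 given alone moved most of these genes. Of the 9 members tested, 2 were higher (Ptges and Ptger4) and 5 lower (Slco2b1, Hpgd, Alox5, Ltc4s and Ptgs1), where 3.80% and 1.99% of all genes tested were called higher and lower. With RANKL present, PRDX1 left 4 members higher (Ptges, Ptger4, Hpgds and Alox5ap) and 2 lower (Alox5 and Hpgd), against 6.03% and 4.17% of all genes. RANKL alone left 5 members lower (Slco2b1, Hpgd, Hpgds, Ltc4s and Alox5ap) and, by limma, 0 higher, against 9.96% and 11.8% of all genes. Ptges passed the adjusted p there (0.0043) but not the 1.5-fold threshold, at 0.57, so that 1 member was higher on p alone, adjusted or not, and the same member was called with voom on the reads and with a pseudocount of 0.1. The median log2 fold change over the 9 members was -0.71 for PRDX1 alone and -1.05 for RANKL alone, where the medians of all genes were -0.04 and 0.10. PRDX1 alone and RANKL alone were both set against the same untreated libraries.

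**Figure D1:**
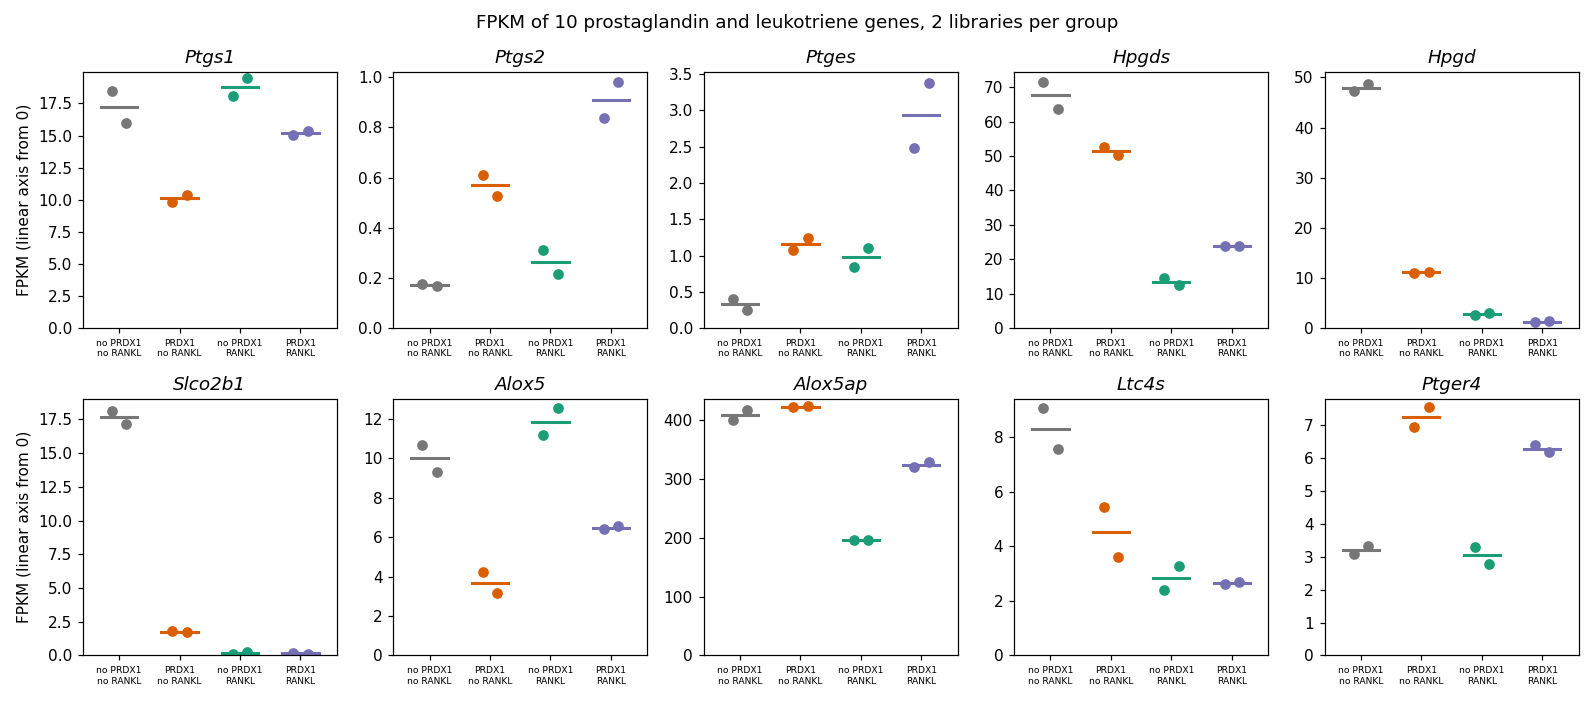
FPKM of each of the 10 genes on a linear axis from 0, with 1 point per library and a bar at the mean of the 2 libraries in each of the 4 groups. Hpgd and Slco2b1 stood highest in the untreated cells, at 47.2 to 48.7 and 17.2 to 18.1 FPKM, and lowest in both groups given RANKL.

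Slco2b1, an organic anion transporter of the family that carries prostaglandins and steroid conjugates into cells, was close to silent once RANKL was present. It was at 18.1 and 17.2 FPKM in no PRDX1 + no RANKL, 1.82 and 1.73 in PRDX1 + no RANKL, 0.118 and 0.232 in no PRDX1 + RANKL, and 0.164 and 0.137 in PRDX1 + RANKL. The untreated cells stood far above all others, the cells with PRDX1 alone came next, and both RANKL groups overlapped at the bottom. PRDX1 alone lowered the mean 9.94-fold, with a log2 fold change of -2.75 (SE 0.09, adjusted p = 5.32e-08), the second lowest among the 11700 genes tested. RANKL alone lowered it 101-fold, from 2341 and 3137 reads to 14 and 35 reads, (log2 fold change -3.99, adjusted p = 4.31e-10). With RANKL present, PRDX1 gave -0.03 (95% interval -0.24 to 0.18, adjusted p = 0.831). The difference between both PRDX1 effects was 2.72 (95% interval 2.42 to 3.02, adjusted p = 9.82e-07), on a gene with no more than 35 reads in any library given RANKL. Slco2b1 averaged 0.175 FPKM with RANKL, so a further fall could hardly show on the FPKM + 1 scale, which largely set this difference. Exons of the antisense genes Gm15635 and Gm34280 cover 7.91% and 1.31% of its exon bases, and counting did not use strand.

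Hpgd encodes 15-hydroxyprostaglandin dehydrogenase, the first enzyme of prostaglandin breakdown. Its 2 libraries stood at 47.2 and 48.7 FPKM without treatment, at 10.95 and 11.3 with PRDX1, at 2.68 and 3.13 with RANKL and at 1.25 and 1.38 with both. No groups overlapped, and the untreated cells were the highest. PRDX1 alone lowered the mean 4.32-fold, with a log2 fold change of -2.02 (SE 0.08, adjusted p = 1.12e-07), the fourth lowest of all genes tested. RANKL alone lowered it 16.5-fold (-3.65, adjusted p = 2.31e-10). Both together lowered it 36.4-fold (-4.40, adjusted p = 2.28e-10), the lowest log2 fold change of FPKM + 1 of any gene tested in that comparison. By the means Slco2b1 fell further there, 117-fold (-4.02), and with voom it was at -6.84 against -5.17 for Hpgd. Unlike Slco2b1, Hpgd was lower with PRDX1 also where RANKL was present, by 2.2-fold (-0.75, adjusted p = 3.81e-05). The PRDX1 effect with RANKL minus that without it was 1.27 (95% interval 1.02 to 1.51, adjusted p = 3.63e-05).

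Over the 8 libraries, the gene whose pattern came nearest to both was F13a1, the A chain of coagulation factor XIII, at a root mean square difference of 0.31 from Hpgd and 0.40 from Slco2b1 on the centred log2(FPKM + 1) scale. The next nearest gene to each was the other of the pair, at 0.41. F13a1 averaged 38.0 FPKM without treatment, 10.9 with PRDX1, 2.87 with RANKL and 2.09 with both. These distances describe 8 libraries in 4 groups and were not tested.

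Hpgds, the haematopoietic prostaglandin D synthase, followed a different order. It was at 71.5 and 63.7 FPKM without treatment, 52.5 and 50.2 with PRDX1, 14.515 and 12.5 with RANKL, and 23.7 and 23.7 with both. RANKL thus gave the lowest libraries, and those with PRDX1 and RANKL lay between them and the cells without RANKL. RANKL alone lowered Hpgds 5.01-fold, with a log2 fold change of -2.24 (SE 0.08, adjusted p = 5.61e-09), and with PRDX1 present the change by RANKL was -1.08 (adjusted p = 4.05e-06). PRDX1 raised it 1.76-fold beside RANKL (0.78, adjusted p = 2.98e-05) but gave -0.39 (adjusted p = 0.00441, under 1.5-fold) without it. The difference of 1.16 (95% interval 0.92 to 1.41) had an adjusted p of 5.75e-05. Mast cells also carry much Hpgds and Ltc4s, and of 9 mast cell markers 6 (Cpa3, Mcpt4, Tpsb2, Cma1, Fcer1a and Ms4a2) were at 0 in all 8 libraries, while the 9 summed to 0.085 to 0.185 FPKM without treatment, 0.114 to 0.202 with PRDX1, 0.091 to 0.136 with RANKL and 0.407 to 0.428 with both, mostly from Kit and Hdc. That sum was thus higher with PRDX1 beside RANKL, as was Hpgds, and its part in the result was not tested. The 2 genes nearest to Hpgds in pattern were Milr1, an inhibitory receptor, at 0.08 and Tm6sf1 at 0.10.

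The inducible prostaglandin E2 branch was low throughout and highest where PRDX1 and RANKL were combined. Ptges, the microsomal prostaglandin E synthase, was at 0.408 and 0.25 FPKM without treatment, 1.08 and 1.24 with PRDX1, 0.845 and 1.10 with RANKL, and 2.49 and 3.37 with both. The untreated libraries were lowest and the doubly treated ones highest, while PRDX1 alone and RANKL alone overlapped. The mean was 3.52-fold higher with PRDX1 alone (log2 fold change 0.70, SE 0.13, adjusted p = 0.00347) and 3.01-fold higher with PRDX1 beside RANKL (0.99, adjusted p = 0.000245). Both treatments together raised it 8.9-fold (1.56, adjusted p = 8.59e-06). RANKL alone gave 0.57 (adjusted p = 0.0043), under 1.5-fold on this scale although the means differed 2.96-fold, and it passed with a pseudocount of 0.1, at 1.34. The interaction was 0.29 (95% interval -0.14 to 0.71, adjusted p = 0.326), and its sign turned under other scales.

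Ptgs2, the inducible cyclooxygenase, had 23 to 183 reads per library. It was at 0.175 and 0.167 FPKM without treatment, 0.610 and 0.528 with PRDX1, 0.313 and 0.215 with RANKL, and 0.838 and 0.981 with both. Every library given PRDX1 lay above every library without it, and no groups overlapped. In the fit without a filter on low values, over 17377 genes, PRDX1 beside RANKL gave a log2 fold change of 0.60 (SE 0.06, adjusted p = 0.000832), a 3.45-fold difference of the means. PRDX1 alone gave 0.42 (adjusted p = 0.00565), under 1.5-fold on this scale at a 3.33-fold difference of the means. The group with both stood 5.32-fold above the untreated cells (0.70, adjusted p = 0.000365). RANKL alone gave 0.11 (adjusted p = 0.201) and the interaction 0.17 (adjusted p = 0.258).

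Ptgs1, the constitutive cyclooxygenase, was by far the more abundant of both cyclooxygenases. It was at 18.5 and 16.0 FPKM without treatment, 9.85 and 10.4 with PRDX1, 18.1 and 19.5 with RANKL, and 15.1 and 15.4 with both. Only the libraries with PRDX1 alone stood clearly apart, below the rest, and the untreated and RANKL libraries overlapped. PRDX1 alone lowered it 1.7-fold (log2 fold change -0.71, SE 0.08, adjusted p = 9.75e-05), and beside RANKL PRDX1 gave -0.28 (adjusted p = 0.0132, under 1.5-fold). The interaction of 0.43 had an adjusted p of 0.0183 but was under 1.5-fold. The gene Gm43621 on the other strand covers 3.81% of its exon bases. Its 2 nearest genes in pattern were Kif2c, a kinesin of the mitotic spindle, and Sapcd2, each at 0.07.

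Ptger4, the EP4 receptor for prostaglandin E2, was higher with PRDX1 whether or not RANKL was present. It was at 3.07 and 3.33 FPKM without treatment, 6.93 and 7.54 with PRDX1, 3.31 and 2.77 with RANKL, and 6.39 and 6.17 with both. The libraries fell into a high pair of groups with PRDX1 and a low pair without it, and the low groups overlapped. PRDX1 raised it 2.26-fold without RANKL (log2 fold change 0.97, SE 0.09, adjusted p = 3.82e-05) and 2.07-fold with it (0.85, adjusted p = 4.35e-05). RANKL gave -0.06 (95% interval -0.26 to 0.14, adjusted p = 0.601) without PRDX1 and -0.18 (95% interval -0.38 to 0.02, adjusted p = 0.146) with it. The interaction was -0.12 (95% interval -0.40 to 0.17, adjusted p = 0.569). The nearest patterns were those of Ddx60 and Ifi208, both at 0.07 and both known as interferon-inducible.

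**Figure D2:**
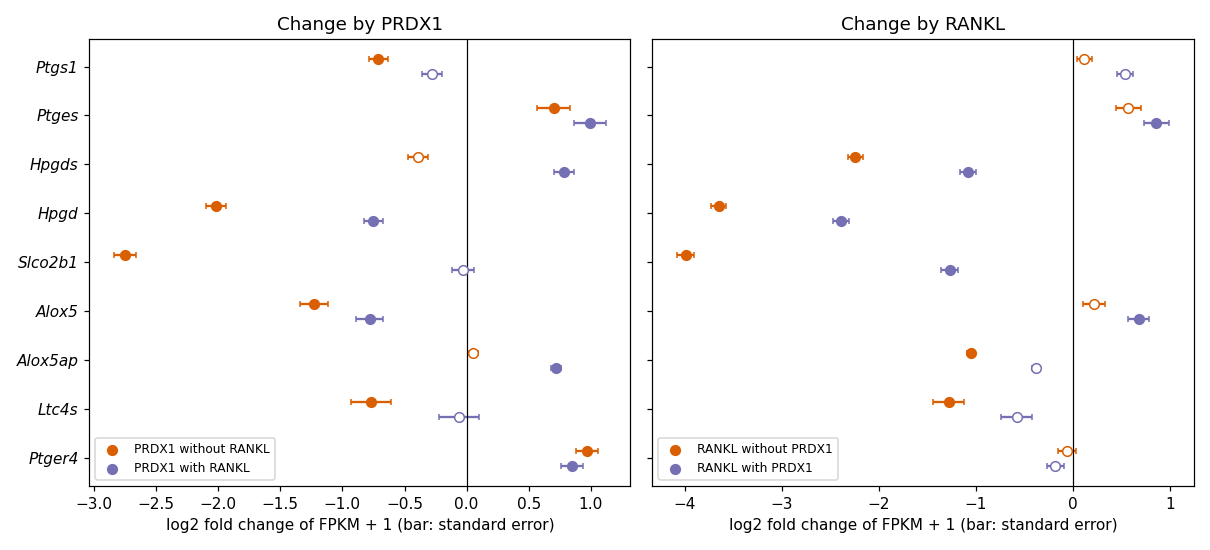
Log2 fold change of FPKM + 1 with its standard error for the 9 members tested, by PRDX1 (left) and by RANKL (right), each in the absence and presence of the other agent, with filled points for called changes. For PRDX1 without and with RANKL, Slco2b1 lies at -2.75 and -0.03 and Ptger4 at 0.97 and 0.85.

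In the leukotriene branch the 3 genes did not move together. Alox5, 5-lipoxygenase itself, was at 10.7 and 9.31 FPKM without treatment, 4.21 and 3.18 with PRDX1, 11.2 and 12.5 with RANKL, and 6.403 and 6.55 with both. Its libraries with PRDX1 lay below those without it, in either medium, and no groups overlapped. PRDX1 lowered it 2.71-fold alone (log2 fold change -1.23, SE 0.11, adjusted p = 3.11e-05) and 1.83-fold beside RANKL (-0.78, adjusted p = 0.000326). RANKL alone gave 0.22 (adjusted p = 0.107), but beside PRDX1 it raised Alox5 1.75-fold (0.68, adjusted p = 0.000948). The latter call was lost, at 0.52, without PRDX1 + no RANKL replicate 2. Mlec, an endoplasmic reticulum lectin, and Tnni2, each at 0.19, were nearest in pattern.

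Alox5ap, the membrane protein FLAP that presents arachidonic acid to 5-lipoxygenase, was the most abundant member and ranked 182 of 11700 genes by mean FPKM. It was at 399.6 and 415.8 FPKM without treatment, 421 and 423.7 with PRDX1, 196.2 and 196.8 with RANKL, and 319.9 and 328 with both. The RANKL libraries were lowest and those with both agents lay between them and the cells without RANKL. RANKL alone lowered it 2.07-fold (log2 fold change -1.05, adjusted p = 1.03e-08), and PRDX1 beside RANKL raised it 1.65-fold (0.72, SE 0.04, adjusted p = 5.62e-07). PRDX1 alone gave 0.05 (95% interval -0.04 to 0.14, adjusted p = 0.377), and the difference between both PRDX1 effects was 0.67 (95% interval 0.54 to 0.79, adjusted p = 2.87e-05). The antisense gene Gm19719 covers 16% of its exon bases. Mfhas1 and Tifa, each at 0.05, were its nearest genes.

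Ltc4s, leukotriene C4 synthase, is listed in the table under a non-coding RefSeq transcript and had 42 to 201 reads per library. It was at 9.05 and 7.54 FPKM without treatment, 5.45 and 3.596 with PRDX1, 2.41 and 3.27 with RANKL, and 2.61 and 2.69 with both. The untreated libraries were highest, and both RANKL groups overlapped. RANKL alone lowered it 2.92-fold (log2 fold change -1.28, SE 0.16, adjusted p = 6.76e-05). PRDX1 alone lowered it 1.83-fold (-0.77, adjusted p = 0.00552), a call lost, at -0.52, without PRDX1 + no RANKL replicate 2. PRDX1 beside RANKL gave -0.06 (95% interval -0.42 to 0.30, adjusted p = 0.782). Since 28.8% of its exon bases are shared with the antisense gene Gm26542, reads of both cannot be told apart. Lifr, the receptor of leukaemia inhibitory factor, was nearest in pattern at 0.13, followed by F630028O10Rik at 0.16.

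The question whether PRDX1 acts alike in precursors and in cells given RANKL was answered by the interaction term. It was called higher, meaning a more positive PRDX1 effect beside RANKL, for 4 of the 9 members tested (Slco2b1, Hpgd, Hpgds and Alox5ap) and lower for 0 (also at an unadjusted p under 0.05 in limma and with voom), against 4.50% and 4.35% of all genes (8.85% in either direction). On this scale a gene near 0 FPKM with RANKL can hardly fall further. The scale thus largely set the term for Slco2b1 (mean 0.175 FPKM with RANKL) and set part of it for Hpgd (2.905). With voom, which adds no FPKM, the terms were 3.12 and 0.96, for Slco2b1 on no more than 35 reads in any library given RANKL. Of the 7 members called for PRDX1 alone, 4 were called in the same direction beside RANKL, namely Ptges, Ptger4, Hpgd and Alox5. Of the 678 genes called for PRDX1 alone, 317 (46.8%) were also called in the same direction beside RANKL, so the members' count is near that of genes at large. These comparisons have no library in common. RANKL beside PRDX1 left 2 members higher (Ptges and Alox5) and 3 lower (Hpgd, Slco2b1 and Hpgds), against 4.52% and 3.98% of all genes. Cells given both agents, set against those given neither, had 2 higher (Ptges and Ptger4) and 4 lower (Hpgd, Slco2b1, Hpgds and Ltc4s), against 7.50% and 5.34%.

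**Figure D3:**
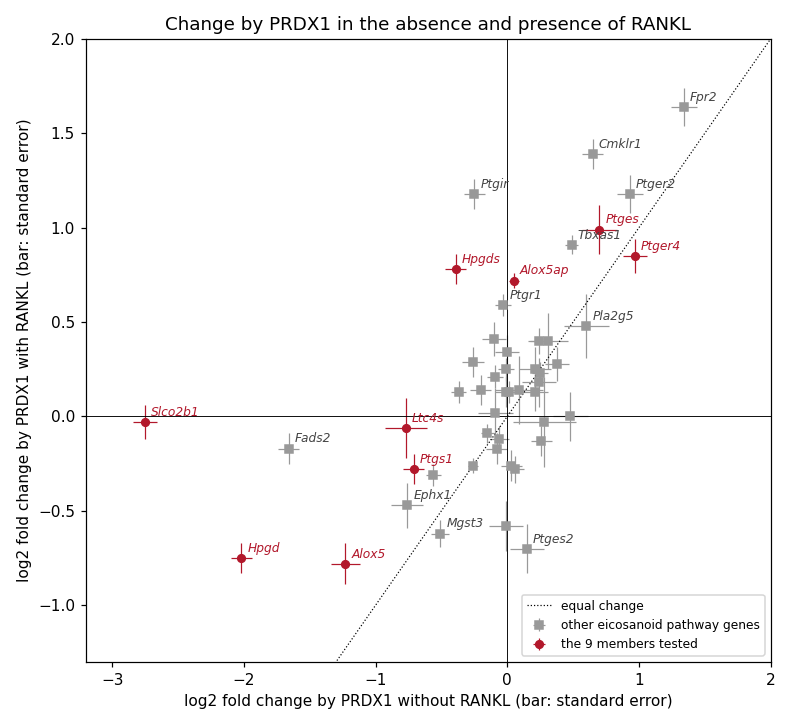
Log2 fold change by PRDX1 without RANKL (horizontal axis) and with RANKL (vertical axis), with standard errors, for the 9 members tested and 40 other eicosanoid genes. The dotted line marks equal change, and Slco2b1, Fads2 and Ptgir lie farthest above it.

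Of 65 other eicosanoid genes listed, 64 were in the table and 40 were tested. 17 of these 40 were called in at least 1 comparison of 2 groups, against 27.6% of all genes tested. PRDX1 alone left 4 higher and 2 lower (all genes 3.80% and 1.99%), and PRDX1 beside RANKL 6 and 2 (6.03% and 4.17%). RANKL alone left 4 higher and 9 lower (11.8% and 9.96%). RANKL beside PRDX1 left 1 and 5 (4.52% and 3.98%), and both against neither 4 and 2 (7.50% and 5.34%). Their median log2 fold changes stayed between -0.10 and 0.14.

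In arachidonate supply, Fads2, the delta-6 desaturase, fell from 31.2 and 35.4 FPKM to 10.3 and 9.46 with PRDX1 (log2 fold change -1.66, adjusted p = 6.97e-07) and to 5.90 and 6.30 with RANKL (-2.27, adjusted p = 9.79e-09). Fads1, the delta-5 desaturase, fell with RANKL alone by 0.64 on the log2 scale. Pla2g5, a secreted phospholipase that releases fatty acids, was higher with PRDX1 alone (0.60, adjusted p = 0.0252) and lower with RANKL alone (-0.73, adjusted p = 0.00427). These calls were lost, at 0.32 without no PRDX1 + no RANKL replicate 2, at 0.48 without PRDX1 + no RANKL replicate 1 and, for RANKL, at -0.45 without no PRDX1 + no RANKL replicate 1. These were the 3 called among the 10 tested genes of release and supply.

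Among the 6 tested prostanoid synthases, Tbxas1, thromboxane synthase, fell with RANKL from 58.4 and 56.8 FPKM to 19.4 and 19.1 (-1.53, adjusted p = 5.11e-09) and stood at 36.1 and 38.2 with both agents, higher by 0.91 than with RANKL alone (adjusted p = 7.23e-07). Ptges2, a membrane-associated prostaglandin E synthase, went the other way, from 5.21 and 7.51 FPKM to 12.5 and 13.6 with RANKL (0.95, adjusted p = 0.000108) and to 7.26 and 8.08 with both. None of the 6 other lipoxygenases passed the filter on low values. In leukotriene synthesis, 2 of 5 tested genes were called, the glutathione transferases Mgst2 and Mgst3. Mgst2 was at 1.02 and 1.29 FPKM without treatment and 3.27 and 1.61 with RANKL (0.63, adjusted p = 0.0408). Without no PRDX1 + RANKL replicate 1 this was 0.28, and the call was also lost in other fits. Mgst3 was lower with PRDX1 beside RANKL (-0.62, adjusted p = 5.97e-05), a call lost, at -0.56, without PRDX1 + RANKL replicate 2.

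Of the 7 tested genes of breakdown, Ptgr1, a prostaglandin reductase, fell with RANKL alone (-1.0, adjusted p = 1.8e-07) and was higher with PRDX1 beside RANKL (0.59, adjusted p = 2.16e-05). Cyp4f16, a fatty acid hydroxylase, rose with RANKL alone (0.72, adjusted p = 2.15e-05), and Ephx1, the microsomal epoxide hydrolase, fell with PRDX1 alone (-0.76, adjusted p = 0.00116). Of the 3 tested transporters, Slco3a1 rose with RANKL from 0.356 and 0.337 to 2.20 and 2.14 FPKM (1.24, adjusted p = 2.24e-05), while Slco2b1 of the same family fell. Abcc1, an exporter of leukotriene C4, was higher in cells given both agents than in untreated cells (0.59, adjusted p = 8.11e-05). Near the 1.5-fold threshold, calls were lost for Ptgr1 by PRDX1 (0.57 and 0.56 without no PRDX1 + RANKL replicate 2 and PRDX1 + RANKL replicate 2), for Ephx1 (-0.58 without no PRDX1 + no RANKL replicate 1) and for Abcc1 (0.58 and 0.54 without no PRDX1 + no RANKL replicate 2 and PRDX1 + RANKL replicate 2).

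Among receptors, Ptger2, the EP2 receptor for prostaglandin E2, was at 3.52 and 3.12 FPKM without treatment, 7.33 and 7.07 with PRDX1, 1.5 and 1.14 with RANKL, and 4.14 and 4.32 with both. Gm17173 and Gm49364 on the other strand cover 4.74% and 2.77% of its exon bases. PRDX1 raised it in either medium (0.93, adjusted p = 8.57e-05, and 1.18, adjusted p = 8.45e-06), as it did Ptger4, and RANKL alone lowered it (-0.90, adjusted p = 2.33e-05). Ptgir, the prostacyclin receptor, fell with RANKL from 5.90 and 5.56 to 1.43 and 1.44 FPKM and stood at 4.48 and 4.59 with both agents. Of the receptors for leukotrienes and other lipid mediators, Fpr2, a formyl peptide receptor that also binds lipoxin, rose with PRDX1 without RANKL (1.34, adjusted p = 6.57e-06) and with it (1.64, adjusted p = 7.82e-07). Cmklr1, a receptor for chemerin and resolvin, rose with PRDX1 in both media (0.65, or 0.56 and not called without no PRDX1 + no RANKL replicate 2, and 1.39) and fell with RANKL alone (-1.49, adjusted p = 1.72e-07). Cysltr1, a receptor for cysteinyl leukotrienes, fell with RANKL alone (-0.99, adjusted p = 5.68e-06).

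**Figure D4:**
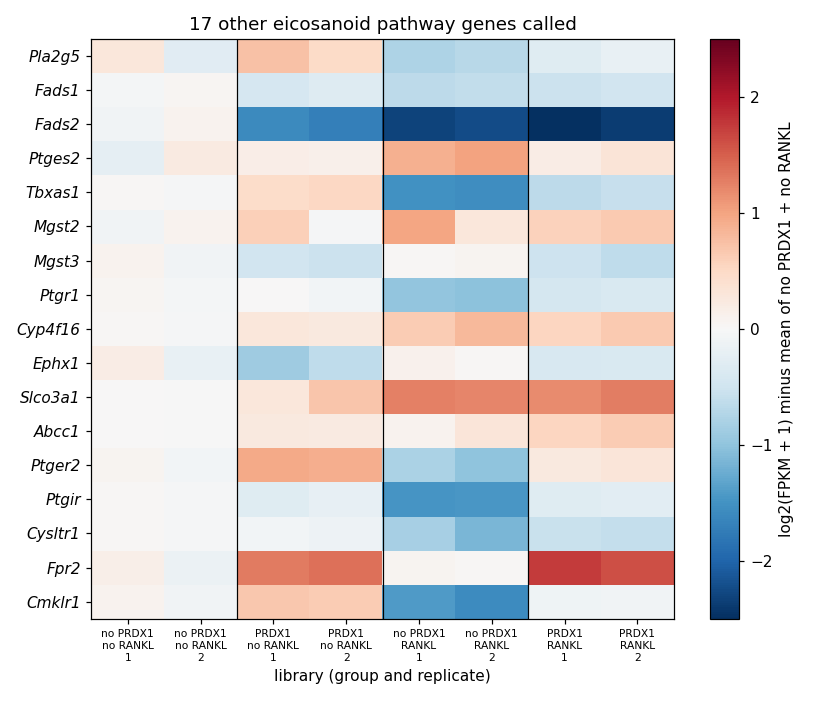
Log2(FPKM + 1) of the 17 other eicosanoid genes called between at least 2 groups, in each of the 8 libraries, less the mean of the 2 untreated libraries. Of these genes, Fads2 lies lowest in each of the 6 treated libraries and Fpr2 highest in each of the 4 given PRDX1.

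Marker lists of the cell types that marrow cultures can hold are given as summed RNA levels, which do not separate a gene switched on in macrophages from the presence of other cells. The summed FPKM of 6 macrophage markers ran from 2012 to 2035 without treatment, 2290 to 2362 with PRDX1, 1265 to 1384 with RANKL and 1701 to 1743 with both, in the same order of groups as Alox5ap, a tie that was not tested. The 8 osteoclast markers summed to 27.4 to 28.3, 59.4 to 60.2, 1648 to 1764 and 208 to 217 in these groups, so that the RANKL comparisons set cultures with differing osteoclast programmes beside each other. The 9 neutrophil markers summed to 8.43 to 12.8 without treatment and 39.3 to 43.8 with PRDX1, mostly from S100a8 and S100a9. S100a8, S100a9 and Mpo, the myeloperoxidase of granules, were called higher with PRDX1 in both media (Mpo by 0.63, adjusted p = 0.00438, and 0.74, adjusted p = 0.000978), and Elane, neutrophil elastase, without RANKL (0.83, adjusted p = 0.0214). With RANKL the list summed to 16.6 to 18.2, and with both agents to 34.6 to 38.3. Ngp and Retnlg, also tested, were called in no comparison, and Retnlg gave -0.17 with PRDX1 beside RANKL (adjusted p = 0.596). Ly6g was at 0.074 and 0.052 FPKM without treatment, 0.279 and 0.186 with PRDX1, 0 and 0.19 with RANKL and 0.071 and 0.052 with both, on no more than 8 reads a library. The 9 stromal markers, carried by Col1a1 and Col1a2, summed to 8.15 to 11 without treatment, 17.3 to 17.5 with PRDX1, 8.04 to 10.0 with RANKL and 16.2 to 20 with both. The sums of the neutrophil and stromal lists, though not every gene in them, were thus higher in the groups in which Ptgs2 and Ptger4 were higher, and higher with PRDX1 than without it in either medium, as was Ptges, and their part in those results was not tested. The 5 dendritic cell markers summed to 1.58 to 2.08 without treatment, 2.21 to 2.43 with PRDX1, 1.88 to 2.16 with RANKL and 3.38 to 4.2 with both, highest where Ptges was highest. 1 of them, Ccr7, was the gene nearest to Ptges in pattern, at 0.11, followed by Slamf8 at 0.16. Of the other 4, Flt3 (mean 0.322 FPKM without treatment and 0.462 with both) and Zbtb46 (0.0920 and 0.471) were also highest with both agents. Cd209a was lower with both agents than without treatment (-0.61, adjusted p = 0.007) and gave -0.49 with PRDX1 alone (adjusted p = 0.0316, under 1.5-fold), while Xcr1 was at 0.129 and 0.081 FPKM without treatment and 0.034 and 0.086 with both. The part of these markers in the Ptges result was not tested. The 5 megakaryocyte and platelet markers, of cells that also make thromboxane, were carried by Pf4 and summed to 592 to 674, 765 to 812, 39.7 to 43.5 and 242 to 265 in the 4 groups, in the same order of groups as Tbxas1, also not tested. Itga2b stayed at or under 0.245 and did not share that order, with means of 0.0880, 0.112, 0.1795 and 0.221 FPKM. Nor did Gp1bb, with 0.2545, 0.115, 0.0950 and 0.0850. The 4 endothelial markers summed to 1.82 without treatment, 3.03 to 3.06 with PRDX1, 3.57 to 3.9 with RANKL and 5.16 to 5.55 with both, highest where Ptges was highest. That order was carried by Kdr. Cdh5 (mean 0.413 FPKM without treatment and 0.313 with both) and Pecam1 (0.341 and 0.273) were lower with both agents and highest with PRDX1 alone. Tek stayed at or under 0.013. The 5 basophil and eosinophil markers summed to 0.078 to 0.169, 0.559 to 0.693, 0.275 to 0.286 and 0.726 to 1.03 in these groups, in the order of groups of Ptgs2. Nearly all of this came from Siglecf, while Mcpt8, Prss34, Epx and Prg2 had no more than 2 reads in any library. The 4 B cell markers summed to 0.365 to 0.544, 1.02 to 1.33, 0.384 to 0.672 and 0.722 to 1.04, higher with PRDX1 in either medium. Cd79a had the highest mean of them in each group. Ms4a1 did not follow beside RANKL, at 0.284 and 0.019 FPKM with RANKL and 0.044 and 0.112 with both. The part of these 3 lists in the Ptges, Ptgs2 and Ptger4 results was not tested. T cell markers summed to no more than 0.161, with Cd3e at 0.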

How the data were processed

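RNA from 8 libraries of OCP cells was sequenced with paired ends. Per the labels and the file header, the authors aligned reads to mm10 with HISAT2 and counted exons of 25124 genes, without regard to strand, with HOMER, and they deposited FPKM values, which HOMER scales to each library's total. The submitters' processing notes also name DESeq2; no versions are given in the sources used here. The table was the only file used, with no unlabelled sample columns, and its columns were matched to samples by title.

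Reads were recovered as FPKM times transcript length times a library total found from the low values. The 2652 to 4136 genes per library at which 1 read could be resolved all came out whole (100% within 0.05 of a read beyond the rounding of the deposited values), and the others were rounded, with 24542578 to 41712971 reads on genes per library. The 2 libraries of each group differed by more than sampling noise (chi-square per degree of freedom 4.59 to 9.19) and were counted separately. Genes with a mean of at least 0.5 FPKM were fitted on log2(FPKM + 1) in 1 model of 4 groups with limma 3.58.1 (R 4.3.3; lmFit, contrasts.fit, eBayes with trend, 4 residual degrees of freedom), with Benjamini-Hochberg adjustment over all genes tested in each of 6 comparisons. The fit was tested on simulated data. An exact permutation test of 2 against 2 libraries cannot go below p = 0.333, so none is given. The members and lists were chosen with earlier results of these data known. All members are named; of other eicosanoid genes those called are named, at most 3 a role. Likeness is the root mean square difference of log2(FPKM + 1) centred per gene. Exon overlaps are from GENCODE M21.

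Alternatives were a pseudocount of 0.1, no filter on low values, quantile normalization, upper quartile scaling, voom on recovered reads, a replicate block, and leaving out each library.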

Additional observations from a re-analysis of the deposited data

Results flagged for a closer look

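The effect of PRDX1 differed between cells with and without RANKL for 4 of 9 members tested and 5 of 40 other eicosanoid genes tested, where 8.85% of all genes tested did, by the interaction term of the limma fit at an adjusted p under 0.05 and a difference of at least 1.5-fold. The difference, on the log2(FPKM + 1) scale as the PRDX1 effect with RANKL minus that without it, was 2.72 for Slco2b1, 1.27 for Hpgd, 1.16 for Hpgds and 0.67 for Alox5ap. Among the other genes it was 1.49 for Fads2, 1.44 for Ptgir, 0.74 for Cmklr1, 0.62 for Ptgr1 and -0.85 for Ptges2. The call for Ptgr1 was lost, at 0.58, without no PRDX1 + no RANKL replicate 1 and without PRDX1 + no RANKL replicate 2. The PRDX1 effect without and with RANKL was -0.39 and 0.78 for Hpgds and -0.25 and 1.18 for Ptgir. For Slco2b1 the effect with RANKL was read from libraries of 14 to 35 reads, and at a mean of 0.175 FPKM with RANKL the scale left little room for a fall. No group has enough libraries for a test of single outlying libraries.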

How the results depend on the processing

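The count of members and of other eicosanoid genes called stayed within 1.5 times the reported count in all 6 comparisons under every alternative run. Of 54 member results, the number that kept both direction and side of the threshold was 50 with a pseudocount of 0.1, 54 without a filter on low values, 52 with quantile normalization, 52 with upper quartile scaling and 49 with voom on recovered reads. The interaction for Ptges turned from 0.29 to -0.08 with a pseudocount of 0.1 and to -0.34 with voom. Calls were gained for Ptges by RANKL alone (1.34 and 1.67 with the same 2 settings), for Ptgs1 by RANKL beside PRDX1 (0.60 with voom), for Alox5 in both against neither (-0.62, -0.61, -0.60 and -0.60) and for Ltc4s by RANKL beside PRDX1 (-0.72, -0.65, -0.65 and -0.71) with the pseudocount of 0.1, quantile normalization, upper quartile scaling and voom, in that order. Changes of low genes grew under voom, which adds no FPKM: Slco2b1 went from -3.99 to -6.64 for RANKL alone and from -1.27 to -3.52 for RANKL beside PRDX1, Hpgd from -0.75 to -1.15 for PRDX1 beside RANKL, and Ptges from 0.70 to 1.89 for PRDX1 alone. The interaction moved from 2.72 to 3.12 for Slco2b1 and from 1.27 to 0.96 for Hpgd.

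With 1 library left out, the lone library of its group is assumed to vary like the others. Without no PRDX1 + RANKL replicate 2, 3 values near 0 changed sign: over the 8 such fits, PRDX1 beside RANKL ran from -0.22 to 0.10 for Ltc4s and from -0.10 to 0.04 for Slco2b1, and RANKL alone from -0.15 to 0.04 for Ptger4. Calls came or went for Alox5 by RANKL beside PRDX1 (0.52 to 0.84), in both against neither (-0.65 to -0.46) and in the interaction (0.30 to 0.61), for Ltc4s by PRDX1 alone (-1.01 to -0.52), by RANKL beside PRDX1 (-0.82 to -0.33) and in the interaction (0.46 to 0.95), and for Ptges by RANKL alone (0.48 to 0.67). Of 44 calls for other eicosanoid genes, none changed sign under any alternative. With a library left out, calls near the threshold were lost for Pla2g5, Mgst2, Mgst3, Tbxas1, Ptgr1, Cyp4f16, Ephx1, Slco3a1, Abcc1 and Cmklr1, each in at least 1 comparison. Mgst2 by RANKL alone was also lost without the filter on low values (0.63), with quantile normalization (0.56) and with upper quartile scaling (0.58). Without the filter Pla2g5 by PRDX1 alone was lost at 0.60, and with quantile normalization at 0.58, as was Mgst3 by PRDX1 beside RANKL at -0.58. In both against neither, Cyp4f16 was lost at 0.55 with quantile normalization and with upper quartile scaling, and Abcc1 at 0.54 with the latter. The cause was not tested. Replicate numbers are shared across groups, but same-numbered libraries deviated together little (correlations 0.01 to 0.10), nothing says that a number marks a shared animal or day, and the numbers in the names of the read directories in the table's header differ from those of the labels used here, so the block rests on an uncertain numbering. With the replicate block, all 54 member results kept direction and side, and 7 rather than 6 other eicosanoid genes were called in both against neither. Depth limits Slco2b1 under RANKL (14 to 35 reads a library), Ptgs2 (23 to 183), Ptges (38 to 515, with 44 and 38 without treatment) and Ltc4s (42 to 201).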
